A study of Homo sapiens with 12 samples.

Results

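The miRNAs described here are the mature products of the paralogous miR-99/let-7/miR-125 clusters. They were taken from the deposited count table by name and number 10 of its 2588 mature miRNA entries. The SPACA6 cluster on chromosome 19 gives 4 of them (hsa-miR-99b-5p, hsa-miR-99b-3p, hsa-let-7e-5p and hsa-miR-125a-5p). The MIR99AHG cluster on chromosome 21 gives 5 (hsa-miR-99a-5p, hsa-miR-99a-3p, hsa-let-7c-5p, hsa-miR-125b-5p and hsa-miR-125b-2-3p). The last, hsa-miR-100-5p, comes from the MIR100HG cluster on chromosome 11. The prefix hsa, for human, is left out below.

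The libraries were small RNA sequencing libraries of HEK293T, an established line from human embryonic kidney in which SV40 large T antigen is expressed. Cultures had been transiently transfected with Tudor-SN siRNA or with Control (Ctl) siRNA, and no other genotype or treatment is given. Each siRNA had 3 libraries in run 1, made from RNA fractions enriched in short RNA, and 3 in run 2, made from total RNA, 12 libraries in all. Tudor-SN is an endonuclease of RNA-induced silencing complexes, and the series asks which mature miRNAs it degrades. All groups are of 1 cell line under a transient knockdown, and Tudor-SN mRNA was not measured, so the knockdown was not checked by these data.

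Many bilaterian animals carry miR-100, let-7 and miR-125 in 1 cluster, and vertebrates hold several copies of that cluster. The miR-99 and miR-100 family is best known for targeting MTOR and IGF1R. The let-7 family represses growth-promoting mRNAs such as HMGA2 and those of RAS genes, and LIN28 proteins block the maturation of most let-7 precursors. The miR-125 family is the counterpart of lin-4 of Caenorhabditis elegans. A hairpin gives a 5p and a 3p product, of which 1 is usually kept in Argonaute (the guide) and the other is mostly discarded (the passenger).

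The mature sequences are shown because the paralogs share their seeds and differ by few bases, which limits how well their reads can be told apart. All 10 names matched a RefSeq mature sequence (GRCh38.p14). Capitals mark the seed, bases 2 to 8 from the 5′ end. The 5p products fall into 3 seed groups. miR-99b-3p and miR-99a-3p share a seed of their own, and that of miR-125b-2-3p is shared by no other member.
miR-99b-5p: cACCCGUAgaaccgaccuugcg
miR-99a-5p: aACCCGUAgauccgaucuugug
miR-100-5p: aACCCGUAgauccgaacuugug
let-7e-5p: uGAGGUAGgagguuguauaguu
let-7c-5p: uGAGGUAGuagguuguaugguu
miR-125a-5p: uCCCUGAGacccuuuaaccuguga
miR-125b-5p: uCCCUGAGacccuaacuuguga
miR-99b-3p: cAAGCUCGugucuguggguccg
miR-99a-3p: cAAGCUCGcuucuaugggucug
miR-125b-2-3p: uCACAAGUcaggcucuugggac
Positions of differences are counted from 1 at the 5′ end of the first miRNA named. From miR-99b-5p to miR-99a-5p the 4 substitutions are C1A, A11U, C16U and C21U. From let-7e-5p to let-7c-5p they are G9U and A19G. From miR-125a-5p to miR-125b-5p there is 1 substitution, C19U, and 2 bases are missing. miR-99a-5p and miR-100-5p differ by U16A alone. let-7c-5p differs from let-7a-5p by G19A alone, and let-7e-5p differs from let-7a-5p by G9U alone. Beyond the members, the abundant miR-10a-5p is a near relative of the miR-99 group.
miR-10a-5p: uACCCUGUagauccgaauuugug
Aligned with miR-99a-5p, it has 3 substitutions (A1U, U16A and C17U) and 1 further base, which lies inside the seed. The seeds of miR-10a-5p and miR-99a-5p thus begin alike and differ in their last bases.

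The hairpins of MIR99B and MIR99A show how the arms lie, with both mature products in capitals.
MIR99B: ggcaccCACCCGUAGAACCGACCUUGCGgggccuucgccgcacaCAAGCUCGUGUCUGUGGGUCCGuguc
MIR99A: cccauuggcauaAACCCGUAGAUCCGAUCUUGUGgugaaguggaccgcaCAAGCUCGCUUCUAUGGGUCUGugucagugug
In the GENCODE release 29 annotation of GRCh38, MIR99B (chr19:51692612-51692681), MIRLET7E (chr19:51692786-51692864) and MIR125A (chr19:51693254-51693339) lie on the plus strand in an intron of the protein-coding gene SPACA6. Gaps of 104 and 389 bases separate them. MIR99A (chr21:16539089-16539169), MIRLET7C (chr21:16539828-16539911) and MIR125B2 (chr21:16590237-16590325) lie on the plus strand in an intron of the long noncoding RNA gene MIR99AHG. MIRLET7C lies 658 bases after MIR99A, and MIR125B2 lies 50325 bases farther on. MIR100 (chr11:122152229-122152308) lies on the minus strand in an intron of MIR100HG, which also holds MIRLET7A2 and MIR125B1. miR-125b-5p has the same mature sequence from MIR125B1 and MIR125B2, so its counts join chromosomes 11 and 21.

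Tudor-SN has been reported to cut at CA and UA dinucleotides, so these were counted on the mature strand with both bases more than 5 bases from either end. Of the 10 members, 9 held at least 1, beside 70.0% of the 2281 table entries with a RefSeq sequence. let-7c-5p held 3 (UA at positions 6, 9 and 16) and its paralog let-7e-5p held 2 (UA at positions 6 and 16). miR-99b-5p, miR-99a-5p and miR-100-5p each held 1 UA at the same position, 7. miR-125b-2-3p held 1 CA, at position 9, and miR-99b-3p held none. These are matches of letters and not measured cleavage sites.

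Libraries held 222452 to 1092713 counts of mature miRNAs in run 1, and 927727 to 3140214 counts in run 2. In both runs the shallowest Tudor-SN library was deeper than the deepest control library. With every library of a comparison thinned to the smallest one, each member call below held within run 1 and within run 2, except that miR-99a-3p had too few counts left to be tested. A count of 0 allows up to 3 counts, or 11.1 to 13.5 CPM (counts scaled to a common library total) in run 1 controls and 0.955 to 3.23 CPM in run 2. These limits, as all such limits here, cover counting error only. Of 12 markers of liver, blood, muscle, nerve, endothelium and islets, 4 to 7 were detected per library, and miR-142-3p, miR-223-3p and miR-206 were at 0 in all of them. The summed marker level was higher with Tudor-SN siRNA in both runs, at 2065 to 2348 against 2927 to 3441 CPM in run 1 and at 3621 to 3749 against 4956 to 4977 CPM in run 2. The part of those markers in the results below was not tested. HEK293T has no defining miRNA among them, so the cell line label could not be checked this way. In bulk RNA, fewer cells with a miRNA and less of it per cell cannot be told apart.

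Together the 10 members held 2.71% ± 0.299 of miRNA counts in run 1 controls and 3.48% ± 0.105 with Tudor-SN siRNA (SD, n = 3). In run 2 they held 0.824% ± 0.0602 and 1.04% ± 0.0317. Levels below are CPM scaled by TMM, which assumes that most miRNAs do not change between libraries, as mean ± SD over 3 libraries. In run 1 controls the order was miR-99a-5p (15649 ± 2412), miR-99b-5p (8862 ± 1137), miR-125b-5p (1254 ± 228), miR-125a-5p (861 ± 93.1), let-7c-5p (385 ± 99.0), let-7e-5p (235 ± 41.8), miR-99b-3p (79.9 ± 33.2), miR-100-5p (73.2 ± 7.84), miR-125b-2-3p (15.9 ± 12.9) and miR-99a-3p (1.23 ± 2.13). miR-99b-3p and miR-100-5p overlapped in their libraries and could not be ordered, and the last 2 were near or under the level that a count of 0 allows. miR-99a-5p held rank 7 of all entries of the table by level there, and miR-99b-5p held rank 11.

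In run 2 controls the order was another one. miR-99b-5p led (4292 ± 261 CPM), followed by miR-125a-5p (2248 ± 105), let-7c-5p (643 ± 50.1), let-7e-5p (609 ± 24.3), miR-99a-5p (411 ± 21.8), miR-125b-5p (153 ± 8.33), miR-125b-2-3p (148 ± 21.8), miR-99b-3p (38.4 ± 7.79), miR-99a-3p (9.92 ± 1.88) and miR-100-5p (3.70 ± 1.02). let-7c-5p and let-7e-5p overlapped, as did miR-125b-5p and miR-125b-2-3p. miR-99a-5p held rank 85 of all entries in these libraries. The Tudor-SN libraries had miR-99b-5p (18853 ± 1376 CPM) above miR-99a-5p (12520 ± 516 CPM) and miR-125a-5p (1845 ± 152 CPM) above miR-125b-5p (694 ± 29.6 CPM) in run 1, both the reverse of the controls, while let-7c-5p and let-7e-5p overlapped. With Tudor-SN siRNA in run 2, let-7e-5p (838 ± 26.3 CPM) stood above let-7c-5p (379 ± 19.5 CPM), and miR-99b-3p overlapped with miR-125b-2-3p, as did miR-99a-3p with miR-100-5p. Each of these is a count of reads of RNAs of 22 or 24 bases, and adapter ligation can favour some ends over others, so the order of miRNAs within a run is that of their reads.

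**Figure D1:**
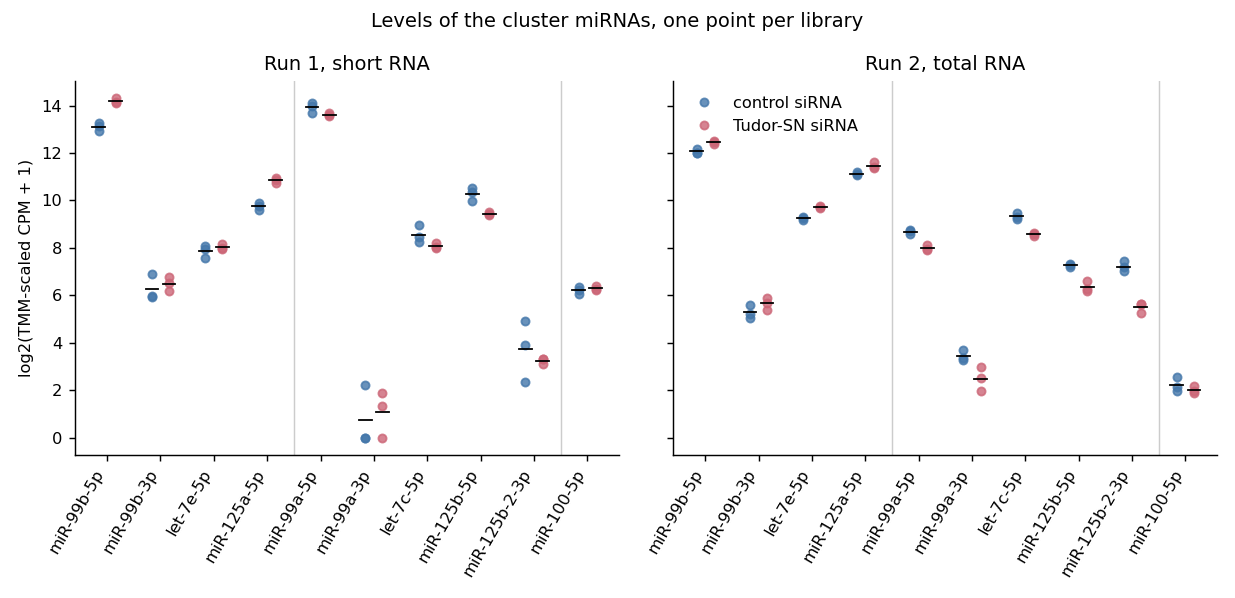
Levels of the 10 cluster miRNAs in each of the 12 libraries, as log2 of the TMM-scaled CPM plus 1 (vertical axis), with run 1 on the left and run 2 on the right. Points are libraries, black lines are means of 3, and vertical grey lines part the SPACA6, MIR99AHG and MIR100HG products. miR-99a-5p is near the top in run 1 and far lower in run 2, while miR-125b-2-3p is higher in run 2 than in run 1.

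With Tudor-SN siRNA the paralogous clusters moved in opposite directions. Within the SPACA6 cluster, 2 of 4 tested products were higher and 0 lower in run 1, and 3 of 4 were higher and 0 lower in run 2. Of all miRNAs tested by edgeR's quasi-likelihood test with Benjamini-Hochberg adjustment at 0.05, 21.4% were higher in run 1 and 24% in run 2. Within the MIR99AHG cluster, 3 of 3 tested products were lower in run 1 and 5 of 5 in run 2, with 0 higher, beside 22.8% and 26.9% of all miRNAs. In both directions together, 5 of 8 tested members passed in run 1 and 8 of 9 in run 2, beside 44.2% of 224 and 50.9% of 383 miRNAs. The median log2 fold change of the tested SPACA6 products was 0.62 in run 1 and 0.36 in run 2, and that of the MIR99AHG products was -0.51 and -0.94. The median over all tested miRNAs was -0.05 and -0.02. The members were chosen with such results known, so these counts describe them and do not single them out.

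The SPACA6 cluster is taken first. miR-99b-5p, its most abundant product, had 7702, 9974 and 8910 CPM in the run 1 controls and 18268, 20425 and 17865 CPM in the Tudor-SN libraries. In run 2 the values were 4135, 4594 and 4148 CPM in controls and 5785, 5322 and 5692 CPM with Tudor-SN siRNA. The groups did not overlap in either run, which was also so for 52.7% of all miRNAs tested in run 1 and for 59.0% in run 2. The log2 fold change was 1.09 (SE 0.09, edgeR adjusted p = 1.2e-31) in run 1 and 0.38 (SE 0.06, edgeR adjusted p = 4.4e-05) in run 2.

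miR-125a-5p, the SPACA6 copy of the lin-4 counterpart, had 871, 949 and 764 CPM in run 1 controls and 1687, 1989 and 1858 CPM in the Tudor-SN libraries. The run 2 values were 2209, 2168 and 2366 CPM in controls against 2608, 2708 and 3117 CPM. Every Tudor-SN library lay above every control library of its run. The log2 fold change was 1.09 (SE 0.13, edgeR adjusted p = 4.7e-16) in run 1 and 0.32 (SE 0.07, edgeR adjusted p = 0.00081) in run 2. Its own 3p product, miR-125a-3p, had too few counts to be tested in run 1 and was at -0.22 (SE 0.23) in run 2, where it did not pass.

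let-7e-5p, the let-7 copy of this cluster, passed in run 2 and not in run 1. It had 190, 244 and 272 CPM in run 1 controls against 254, 244 and 288 CPM, and those groups overlapped (log2 fold change 0.16, SE 0.17). Run 2 gave 583, 632 and 611 CPM in controls and 811, 839 and 864 CPM in the Tudor-SN libraries, with no overlap. The run 2 log2 fold change was 0.46 (SE 0.07, edgeR adjusted p = 2.1e-05). The change itself was not shown to differ between the runs (interaction 0.35, SE 0.18, edgeR adjusted p = 0.22), though it passed without run 2 Tudor-SN replicate 3 (0.54, edgeR adjusted p = 0.031). let-7e-3p was not tested in run 1 and did not pass in run 2 (0.01, SE 0.46).

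miR-99b-3p, which shares the MIR99B hairpin with miR-99b-5p, ran from 60.5 to 118 CPM in run 1 controls and from 71.9 to 108 CPM with Tudor-SN siRNA. It ran from 32 to 47.1 CPM in run 2 controls and from 41.2 to 58.1 CPM with Tudor-SN siRNA. The groups overlapped in both runs, and the log2 fold changes of 0.16 (SE 0.25) and 0.34 (SE 0.19) did not pass. Counts were 13 to 32 in the run 1 controls, so changes of this size were hard to detect. The run 2 value passed with no filter on low counts (0.46, edgeR adjusted p = 0.0498) and without Tudor-SN replicate 2 (0.48, edgeR adjusted p = 0.0418).

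The MIR99AHG cluster went the other way. miR-99a-5p had 13093, 15969 and 17885 CPM in run 1 controls and 11983, 13013 and 12564 CPM in the Tudor-SN libraries. Run 2 gave 386, 421 and 425 CPM in controls and 242, 247 and 276 CPM with Tudor-SN siRNA. The groups did not overlap in either run, narrowly in run 1. It fell by 0.32 on the log2 scale (SE 0.08, edgeR adjusted p = 0.00056) in run 1 and by 0.69 (SE 0.08, edgeR adjusted p = 3.9e-06) in run 2. The run 1 call ended without control replicate 3 (-0.20, edgeR adjusted p = 0.0937) and with no filter on low counts (-0.13, edgeR adjusted p = 0.561), while over 13 alternatives it ran from -0.52 to -0.13 with adjusted p from 1.9e-06 to 0.561. The authors' deposited table gave -0.20 with an adjusted p of 0.256 in run 1 and -0.61 with an adjusted p of 6.2e-09 in run 2.

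let-7c-5p had 496, 307 and 352 CPM in run 1 controls and 263, 290 and 256 CPM in the Tudor-SN libraries. Control replicate 1 stood above the others there. In run 2 the levels were 599, 698 and 631 CPM in controls and 357, 386 and 393 CPM with Tudor-SN siRNA, with a wide gap between the groups. It fell by 0.51 (SE 0.16, edgeR adjusted p = 0.0039) in run 1 and by 0.77 (SE 0.08, edgeR adjusted p = 5.9e-07) in run 2. Without run 1 control replicate 1 the run 1 value was -0.28 (edgeR adjusted p = 0.234), and with no filter on low counts it was -0.32 (edgeR adjusted p = 0.256), so that call ended. Over 13 alternatives its run 1 value lay between -0.70 and -0.28. The authors' deposited table had let-7c-5p at -0.38 with an adjusted p of 0.125 in run 1.

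miR-125b-5p, which can arise on chromosome 11 or 21, had 1008, 1459 and 1294 CPM in run 1 controls and 675, 728 and 678 CPM with Tudor-SN siRNA. Run 2 gave 144, 155 and 160 CPM in controls and 72.4, 76.3 and 95.1 CPM in the Tudor-SN libraries. Neither pair of groups overlapped. It fell by 0.86 (SE 0.13, edgeR adjusted p = 4.1e-10) in run 1 and by 0.94 (SE 0.12, edgeR adjusted p = 1.1e-05) in run 2. The product that only MIR125B1 gives, miR-125b-1-3p, had 0 counts in all 12 libraries, as did let-7a-2-3p, and miR-100-3p had 0 counts except for 1 and 2 in a pair of run 2 Tudor-SN libraries.

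miR-125b-2-3p, the product that only MIR125B2 gives, had the deepest fall of the members. In run 2 its counts were 128, 283 and 134 in controls against 165, 142 and 64 with Tudor-SN siRNA, which is 146, 171 and 127 against 48.9, 47.9 and 37.6 CPM. Every control lay far above every Tudor-SN library. It fell by 1.71 on the log2 scale (SE 0.14, edgeR adjusted p = 9.2e-08), the eighth lowest (rank 8) of 383 miRNAs. In run 1 it had 1, 8 and 3 counts in controls and 10, 6 and 6 with Tudor-SN siRNA and could not be tested.

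miR-99a-3p, the partner of miR-99a-5p, had 0 to 3 counts per library in run 1 and was not tested. Its run 2 counts were 8, 20 and 9 in controls and 16, 20 and 5 with Tudor-SN siRNA, or 8.55 to 12.1 against 2.94 to 6.75 CPM. It fell by 1.01 (SE 0.35, edgeR adjusted p = 0.025), a call on few counts. Leaving out any of control replicates 1 and 2 and Tudor-SN replicates 1 and 3 ended it (-0.79 to -1.07, edgeR adjusted p from 0.0599 to 0.203), as did DESeq2 and no filter on low counts (adjusted p = 0.121 and 0.118). let-7c-3p, from the same cluster, was not tested in either run and had 4, 2 and 3 counts in run 1 controls against 2, 0 and 1.

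miR-100-5p, of the chromosome 11 cluster, passed in neither run. It had 18, 22 and 14 counts in run 1 controls and 85, 64 and 50 with Tudor-SN siRNA, which is 65.6 to 81.3 against 74.5 to 82.1 CPM. The run 1 log2 fold change was 0.07 (SE 0.27) and did not pass. In run 2 it reached 3 to 12 counts per library and was not tested. let-7a-5p, which MIRLET7A2 of the same cluster can give together with MIRLET7A1 and MIRLET7A3, rose by 0.53 (SE 0.11) in run 1 and by 0.17 (SE 0.05) in run 2.

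**Figure D2:**
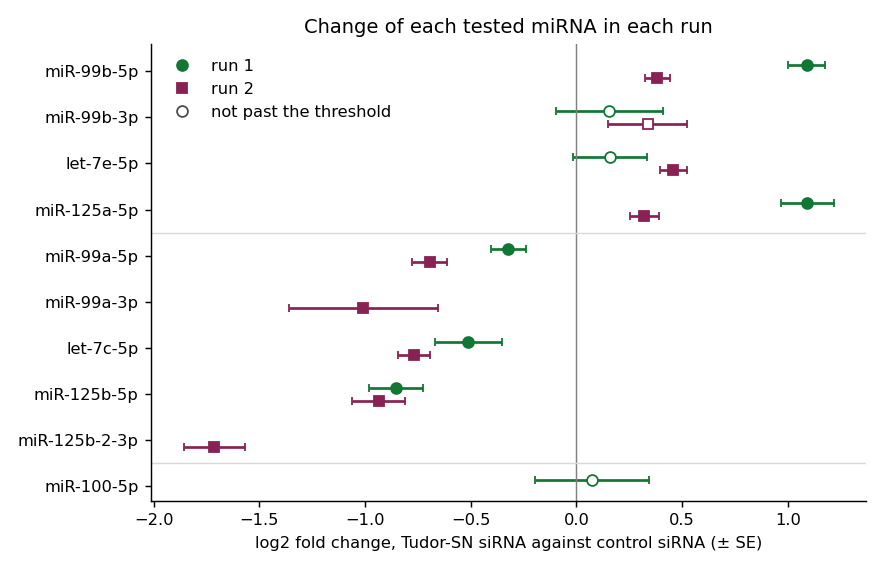
Log2 fold change of Tudor-SN siRNA against control siRNA (horizontal axis, bars are standard errors from edgeR) for each member tested, circles for run 1 and squares for run 2, n = 3 libraries per group. Open symbols did not pass the adjusted threshold of 0.05, and a member with no symbol for a run had too few counts to be tested there. All filled SPACA6 symbols lie above 0 and all filled MIR99AHG symbols lie below 0.

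Of the 9 related miRNAs outside the member list (miR-10a-5p, miR-10b-5p, miR-98-5p and let-7a, b, d, f, g and i, all 5p), 6 were higher and 1 lower in run 1, and 5 were higher and 1 lower in run 2. miR-10a-5p was the lower one in both runs, at -0.24 (SE 0.04) and -0.57 (SE 0.07). Of the 7 other products of the 3 clusters, 1 of 1 tested was higher in run 1 and 1 of 3 in run 2, and the one higher was let-7a-5p.

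The contrast between the paralogs can be read inside each library, where no scaling between libraries enters. The number of miR-99b-5p counts per miR-99a-5p count was 0.588, 0.625 and 0.498 in run 1 controls and 1.52, 1.57 and 1.42 with Tudor-SN siRNA. Run 2 gave 10.7, 10.9 and 9.75 against 23.9, 21.5 and 20.6. The ratio thus rose 2.65-fold in run 1 and 2.10-fold in run 2, and the groups were far apart in both.

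miR-125a-5p per miR-125b-5p was 0.864, 0.651 and 0.591 in run 1 controls against 2.50, 2.73 and 2.74 with Tudor-SN siRNA. Run 2 gave 15.3, 14 and 14.7 against 36, 35.5 and 32.8. This ratio rose 3.83-fold in run 1 and 2.37-fold in run 2. let-7e-5p per let-7c-5p was 0.382, 0.795 and 0.773 in run 1 controls against 0.969, 0.841 and 1.12. Run 2 gave 0.973, 0.906 and 0.967 against 2.27, 2.17 and 2.20. The let-7 groups lay close together in run 1, where the difference of 0.65 on the log2 scale fell to 0.31 without control replicate 1, and lay well apart in run 2, where it was 1.22.

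Over both runs the mean log2 differences were 1.24 for the miR-99 pair, 0.94 for the let-7 pair and 1.59 for the miR-125 pair. Each had p = 0.005 in a two-sided exact permutation test with the siRNA labels permuted within runs, the smallest p that test can give. After Benjamini-Hochberg adjustment over 7 ratios each permutation p was 0.00875. In each run the ratio was higher in 3 of 3 Tudor-SN libraries than in all controls. By CPM, 52.7% of all miRNAs tested in run 1 and 59.0% in run 2 also had groups without overlap. The share among other pairs of miRNAs was not computed. These pairs were chosen with earlier results of these data known, so the p-values describe them and do not single them out. In a single run, 3 libraries against 3, the exact test cannot go below p = 0.1. Summed over the 3 5p products, SPACA6 counts per MIR99AHG count were 0.580 ± 0.0628 in run 1 controls and 1.55 ± 0.0668 with Tudor-SN siRNA (SD, n = 3). In run 2 they were 5.93 ± 0.179 and 13 ± 0.663. Near-identical reads shared between paralogs would enter both sides of a ratio, and how the authors assigned such reads is not given in the sources used here.

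**Figure D3:**
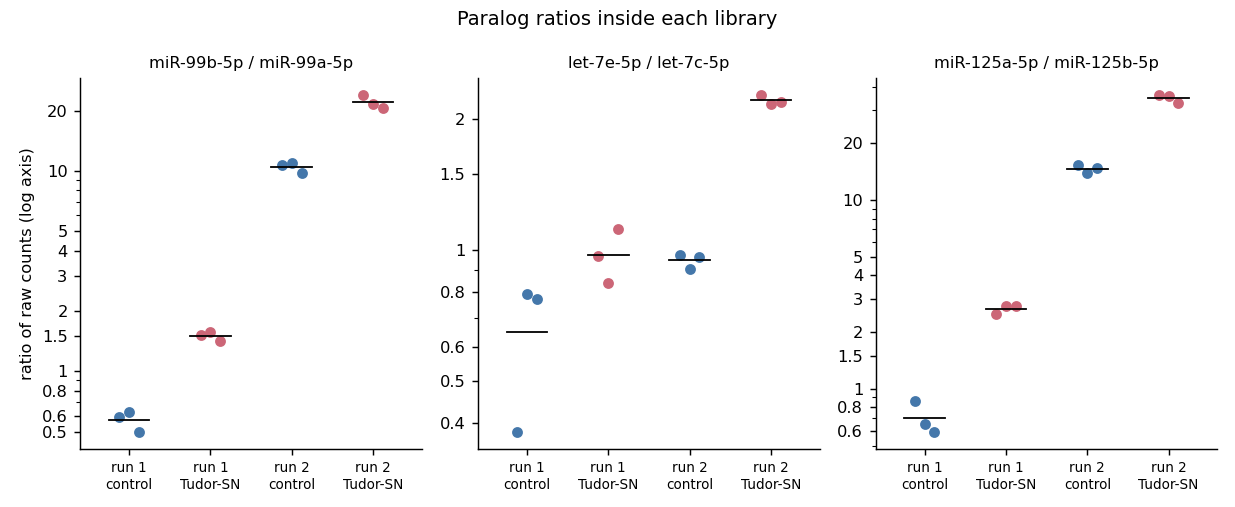
Ratio of the raw counts of each SPACA6 5p product to its MIR99AHG paralog inside each library (vertical log axis, a scale of its own per panel) for the 4 groups. Points are libraries and black lines are means of 3. In every panel the Tudor-SN libraries lie above the control libraries of the same run, with the smallest gap for let-7 in run 1.

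The arms of a hairpin were compared in the same way. miR-99b-3p per miR-99b-5p was 0.885% ± 0.265 in run 1 controls and 0.481% ± 0.121 with Tudor-SN siRNA, and in run 2 it was 0.890% ± 0.126 and 0.888% ± 0.116 (SD, n = 3). The log2 difference over both runs was -0.46 and did not pass (two-sided exact permutation test, p = 0.05, adjusted p = 0.07). It passed without run 2 control replicate 1 and without run 2 Tudor-SN replicate 1 (-0.50 and adjusted p = 0.035 by the exact permutation test in both). miR-125b-2-3p per miR-125b-5p was 1.02, 1.1 and 0.793 in run 2 controls and 0.676, 0.628 and 0.395 with Tudor-SN siRNA, so that in run 2 the 3p product fell further than the 5p product. In run 1 the same ratio was 0.0117 ± 0.00816 and 0.0123 ± 0.00152. Over both runs that difference was -0.32 (adjusted p = 0.37 by the same exact permutation test), and that of miR-99a-3p per miR-99a-5p was -0.48 (adjusted p = 0.37). The miR-125b-2 value hung on single libraries and on depth. By the exact permutation test it passed without run 1 control replicate 1 (-0.56, adjusted p = 0.028) and after thinning (-1.22, adjusted p = 0.049), and it was -0.10 without run 1 control replicate 2 (adjusted p = 0.75). Both run 1 values rest on 10 or fewer counts of the 3p product per library.

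The size of the change differed between the runs for 2 members. The rise of miR-99b-5p was smaller in run 2 than in run 1 by 0.65 on the log2 scale (SE 0.12, edgeR interaction adjusted p = 0.00031), and that of miR-125a-5p was smaller by 0.72 (SE 0.13, edgeR adjusted p = 0.00039). The other 7 members tested did not pass, so 0 were larger in run 2 and 2 were smaller, beside 5.56% and 3.44% of 378 miRNAs, or 8.99% in either direction. The median interaction over all miRNAs was 0.19 with TMM over all libraries and 0.03 with TMM within each run. With TMM within each run the values were -0.81 and -0.88, and miR-99a-5p passed too (-0.48, edgeR adjusted p = 0.0075), as it did with RLE, upper quartile scaling, DESeq2 and without any 1 library of run 1. Leaving out 1 library of run 1 also made let-7c-5p pass, except for control replicate 2 (-0.59 to -0.82, edgeR adjusted p from 0.00056 to 0.025). miR-125b-5p passed without run 1 control replicate 2 (-0.60) or Tudor-SN replicate 3 (-0.52), and miR-125b-2-3p passed without run 1 control replicate 2 (-2.09). The runs differ in RNA fraction, size selection and sequencer, which cannot be told apart.

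The control libraries of the 2 runs were also compared, since the same siRNA was given in both. They are the controls used above, so this comparison shares libraries with the others. The 5p products of the miR-99 and miR-100 group were lower in run 2. miR-99a-5p was at 18402 ± 2764 CPM in run 1 and 334 ± 22.4 CPM in run 2 on the scale of this fit, a log2 fold change of -5.78 (SE 0.10, edgeR adjusted p = 1.8e-27). miR-100-5p went from 86.1 ± 9.04 to 3.02 ± 0.882 CPM (-4.71, SE 0.34) and miR-99b-5p from 10420 ± 1279 to 3488 ± 278 CPM (-1.58, SE 0.08). miR-99a-5p was the eleventh lowest (rank 11) of 302 miRNAs tested.

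The miR-125 paralogs parted between the runs. miR-125b-5p was lower in run 2 (-3.56, SE 0.12) and miR-125a-5p was higher (0.84, SE 0.09). let-7e-5p was higher (0.85, SE 0.14), and let-7c-5p was at 0.21 (SE 0.14) and did not pass, while library size alone (0.71) or no filter on low counts (0.72) made it pass. The arms of MIR99B moved alike, with miR-99b-3p at -1.57 (SE 0.30) beside -1.58 for miR-99b-5p, while those of MIR125B2 parted. miR-125b-2-3p was higher in run 2, from 18.6 ± 15 to 120 ± 19.6 CPM (2.65, SE 0.38), while miR-125b-5p, which that hairpin can also give, was lower. Its run 1 level rests on 1, 8 and 3 counts, and over 12 alternatives the value ran from 2.26 without run 1 control replicate 1 to 3.65 without replicate 2, and it passed in each. miR-99a-3p had 0, 1 and 0 counts in run 1 controls and 8, 20 and 9 in run 2 controls and was not tested. In all, 3 of 9 tested members were higher, beside 44.7% of all miRNAs, and 5 were lower, beside 35.4%. Calls in either direction took in 80.1% of all miRNAs, and groups without overlap took in 80.8%, against 8 of 9 members for both. The members thus differed between the runs about as often as miRNAs at large.

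**Figure D4:**
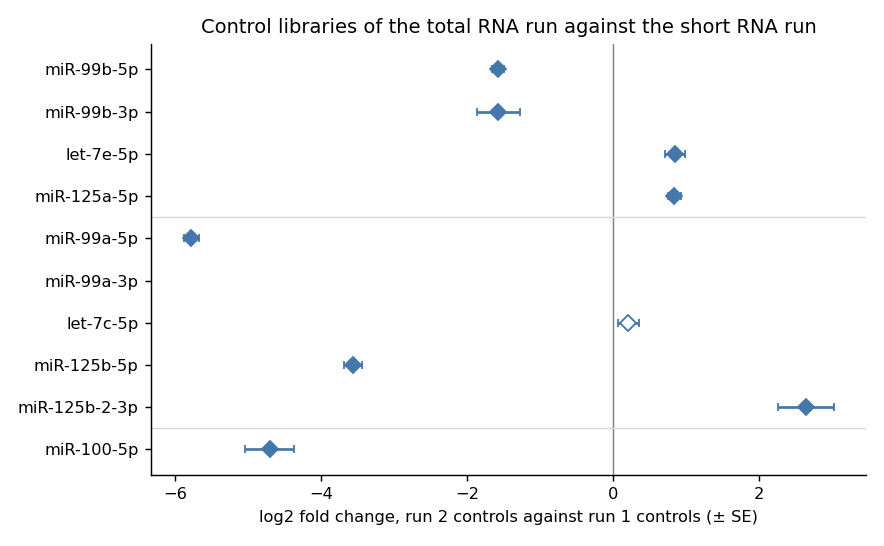
Log2 fold change of run 2 controls (total RNA) against run 1 controls (short RNA) for each member tested (horizontal axis, bars are standard errors from edgeR, n = 3 libraries per run). The open symbol, let-7c-5p, did not pass, and miR-99a-3p had too few counts to be tested. The values run from -5.78 for miR-99a-5p to 2.65 for miR-125b-2-3p.

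Levels of miR-99a-5p followed those of miR-10a-5p. For this, log2 levels were centred on the mean of each run over the 12 libraries. Within a run all Tudor-SN libraries were deeper than the controls, so differences by siRNA and by depth enter these correlations together. Among 192 miRNAs outside the list, miR-99a-5p had its highest Pearson correlation with miR-10a-5p (r = 0.941), then with miR-7974 (0.908) and miR-1269b (0.889). For miR-99b-5p the most similar were let-7a-5p (r = 0.983), miR-501-3p (0.969) and miR-320a (0.953). Among the 7 members with a value in this comparison, miR-99b-5p was most similar to miR-125a-5p (0.957) and miR-99a-5p to miR-125b-5p (0.933).

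Counts of miR-99a-5p per 100 counts of miR-10a-5p, a ratio chosen after the values were seen, were 2.36 to 2.99 in run 1 controls and 2.53 to 2.66 with Tudor-SN siRNA. In run 2 they were 0.102 to 0.123 and 0.101 to 0.107. The siRNA groups overlapped in both runs, while the runs lay far apart. By contrast miR-99b-5p per 100 counts of miR-10a-5p was 1.39 to 1.79 in run 1 controls and 3.79 to 4.09 with Tudor-SN siRNA. In run 2 it was 1.08 to 1.34 and 2.08 to 2.55, and the groups overlapped in neither run. miR-125b-5p per 100 counts of miR-10a-5p was 0.182 to 0.261 in run 1 controls and 0.142 to 0.146 with Tudor-SN siRNA. In run 2 it was 0.0382 to 0.0454 and 0.0316 to 0.0348, so it was lower without overlap in both runs. miR-100-5p per 100 counts of miR-99a-5p, from which it differs by 1 base, was 0.367 to 0.554 in run 1 controls. With Tudor-SN siRNA it was 0.593 to 0.633 in run 1, without overlap. In run 2 it was 0.670 to 1.15 in controls and 1.06 to 1.47 with Tudor-SN siRNA, with overlap. The run 1 control values rest on 14 to 22 counts of miR-100-5p and the run 2 values on 3 to 12. let-7c-5p per 100 counts of let-7a-5p was 13.5 ± 4.44 in run 1 controls and 6.48 ± 0.245 with Tudor-SN siRNA (SD, n = 3). In run 2 it was 12.1 ± 0.753 and 6.29 ± 0.173. let-7e-5p per 100 counts of let-7a-5p fell in run 1, from 8.10 ± 1.01 to 6.31 ± 0.691. In run 2 that ratio rose, from 11.4 ± 0.623 to 13.9 ± 0.143. Whether reads of one of these near relatives were counted for another was not tested, since only counts were used here.

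**Figure D5:**
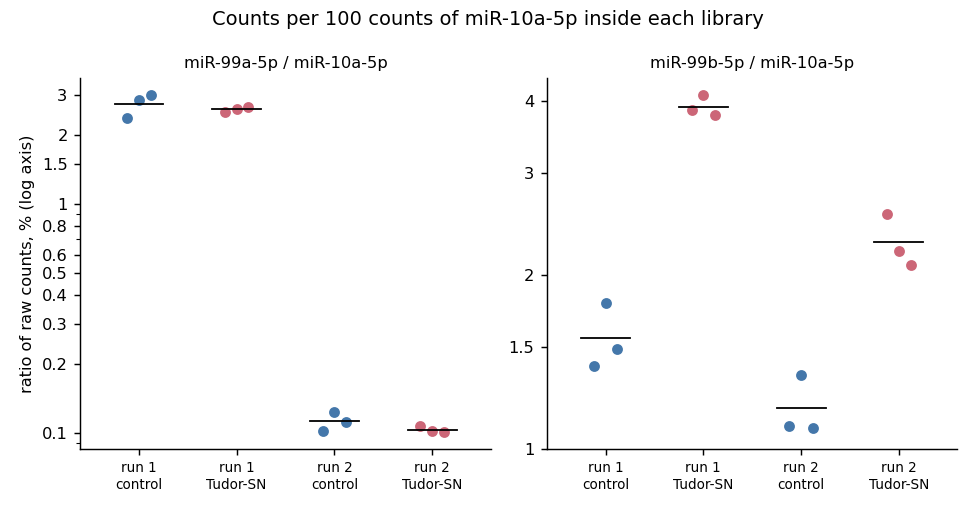
Raw counts of miR-99a-5p (left) and miR-99b-5p (right) per 100 counts of miR-10a-5p inside each library (vertical log axis, a scale of its own per panel) for the 4 groups. Points are libraries and black lines are means of 3. The siRNA groups overlap for miR-99a-5p within each run and do not for miR-99b-5p.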

How the data were processed

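Small RNA libraries of HEK293T cells were counted per mature miRNA by the authors. The deposited raw counts were used for all tests. The deposited DESeq-normalized signal equalled the counts divided by 1 factor per library, and the deposited RPM summed to about the same total in each library. Neither was used in a test. Per the file headers, the deposited table also holds the authors' own comparison of each run, as a log2 fold change with its adjusted p-value. Tools named in the submitters' processing notes are Bowtie2 (both runs) and cutadapt, DESeq and DESeq2 (run 2). Their versions, the genome build, the annotation and the treatment of multi-matching reads were not given in the sources used here.

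Tests used edgeR 4.0.16 in R 4.3.3 (quasi-likelihood F test, TMM, filterByExpr with minimum count 10 and minimum total 15, Benjamini-Hochberg over all miRNAs tested). Each run was fitted alone. The interaction fit used all 12 libraries and the control comparison 6. Ratios used raw counts plus 0.5. Replicates are not stated to be separate cultures, so p-values reflect only how these libraries vary, possibly for technical reasons. Run 2 Tudor-SN replicate 3 differed most from its group. The chi-square of its counts per degree of freedom was 44.3 against replicate 1 and 25.6 against replicate 2. The other pairs within a group had 2.75 to 11.1. Alternatives were other scalings, no filter, DESeq2 1.42.0, thinning, a replicate block and leaving out each library. All members were named, and likeness was ranked for the most abundant 5p product of each cluster. The members, lists and ratios were chosen with earlier results of these data known. Sequences are RefSeq's (GRCh38.p14).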

Additional observations from a re-analysis of the deposited data

Results flagged for a closer look

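The change with Tudor-SN siRNA differed between the runs for miR-99b-5p (run 2 minus run 1, -0.65, edgeR interaction adjusted p = 0.00031) and for miR-125a-5p (-0.72, edgeR interaction adjusted p = 0.00039). For both, every Tudor-SN library lay above every control library of its run. Groups without overlap, in either direction, were also found for 52.7% of all miRNAs tested in run 1 and 59.0% in run 2. Over 20 alternatives the first ran from -1.19 to -0.45 (adjusted p from 3.9e-10 to 0.0042) and the second from -1.23 to -0.52 (adjusted p from 7.7e-09 to 0.0113). Leaving out any 1 of the 6 libraries of run 1 gave the larger values, -0.95 to -1.19 and -1.07 to -1.23, and moved the median of all miRNAs from 0.19 to between -0.32 and -0.21.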

How the results depend on the processing

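In run 1 and run 2 the calls of miR-99b-5p, miR-125a-5p and miR-125b-5p held under all 13 alternatives, as did those of let-7e-5p, miR-99a-5p, let-7c-5p and miR-125b-2-3p in run 2. Upper quartile scaling, which moved the run 1 median of all miRNAs from -0.05 to -0.24 and the split of calls from 48 higher and 51 lower to 33 and 69, turned 3 values that had not passed: miR-99b-3p (-0.039), let-7e-5p (-0.034) and miR-100-5p (-0.12). Leaving out 1 library gave -0.090 to 0.59 for miR-99b-3p and -0.019 to 0.17 for miR-100-5p in run 1. The interaction count of 34 became 17 after thinning and 55 with the replicate block, and 23 to 74 when 1 library was left out. Its split was 21 higher and 13 lower, against 10 and 34 with RLE, 10 and 33 with DESeq2, 14 and 20 with upper quartile scaling and 13 and 31 with TMM within each run. In run 2 the split of 92 and 103 became 103 and 78 with library size alone and 106 and 77 with no filter. Interaction values that had not passed turned for miR-99b-3p with RLE (-0.014) and DESeq2 (-0.0023) and for miR-125b-5p after thinning (0.20). Leaving out 1 library gave -0.64 to 0.50 for miR-99b-3p, -0.18 to 0.54 for let-7e-5p and -0.60 to 0.19 for miR-125b-5p. The cause was not tested. Blocking on the replicate number, the ratio differences of 1.24, 0.94, 1.59 and 1.28 (cluster sums) had an adjusted p of 0.0547 by an exact sign-flip permutation test of 64 assignments, each at the smallest p that test can give, so this says nothing about their stability. To look for pairs, the mean of its siRNA group was subtracted from each log2 level, miRNA by miRNA within a run. The correlations that follow are of these deviations, between a control and a Tudor-SN library, and not of whole profiles. Same-numbered libraries correlated at 0.0814 to 0.143 in run 1 and 0.0439 to 0.0720 in run 2. Libraries of different number correlated at -0.140 to 0.0133 in run 1 and -0.132 to 0.0901 in run 2. Of 3 controls per run, 3 in run 1 and 2 in run 2 correlated best with their own number. Whether the numbers mark true pairs was not tested, and the labels do not say. The block changed no other call of a member except the interaction of miR-99a-5p, which then passed (-0.33). After thinning, the arm ratio of miR-99a was at 0.041 and that of miR-125b-2 at -1.22, which passed. Without 1 library the latter was -0.56 to -0.10 (adjusted p from 0.028 to 0.75) and that of miR-99b -0.54 to -0.35 (adjusted p from 0.035 to 0.182), and some of these passed. Few counts of 3p products limit these ratios and the run 1 values of miR-99a-3p and miR-125b-2-3p.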
